A study of Oncorhynchus mykiss with 9 samples.

Results

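Heat shock proteins of the cytosol and the mitochondrion, together with heat shock factor 1, were followed in rainbow trout head kidney at 3 oxygen levels. The set rests on 10 symbols, chosen with earlier results of these data known: hspa8, hsp70, hspa4, hspa9, hsp90aa1, hsp90ab1, hsph1, hspd1, hspe1 and hsf1. Every row of the deposited gene table with such a symbol was taken, in any letter case and with any copy suffix. This gave 27 of the 44219 rows, from 8 of the 10 symbols, since no row carried hsp90aa1 or hsph1. Of these, 24 rows reached 10 counts per library in at least 1 group and were analysed, among 28711 such rows of the whole table.

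The study sequenced 9 libraries, 3 per group, from full-sibling trout weighing about 130 g and held at 12 °C. Severe hypoxia was 3.0 mg/L dissolved oxygen for 12 h, moderate hypoxia was 4.5 mg/L for 12 h, and the normoxic control was at 8.5 mg/L with a label of 0 h. Oxygen and sampling time cannot be told apart in a comparison with the control, whereas the hypoxia groups share their sampling time. How many fish went into a library is not stated in the labels. For each gene and group the table gives a single mean estimated count and a single FPKM, the fragments per kilobase of gene scaled to library size. Variation between fish is therefore not known, none of the differences can be checked against replicates, and the text holds no p-values.

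Heat shock proteins are chaperones, which bind unfolded proteins and use ATP to help them fold or to hand them on. HSP70 proteins work with HSP40 partners that bring clients and with nucleotide exchange factors, among them the HSP110 class, that make them let go. HSP90 receives clients such as kinases and steroid receptors at a later stage. Mitochondria have a set of their own: a matrix HSP70 that draws proteins in, and the HSP60 chamber with its HSP10 lid, in which they fold. Heat shock factor 1 is held inactive by chaperones and switches on their genes when unfolded proteins build up.

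Libraries averaged 14700244 counts in severe hypoxia, 15301518 in moderate hypoxia and 15246482 in the control. Globin transcripts made up 7.37% of severe, 4.12% of moderate and 13.0% of control counts. Ratios below are of counts scaled by trimmed means of M values, with severe counts divided by 1.22 and moderate counts by 1.62. Without that step, on library totals, the median log2 ratio of all analysed genes was 0.34 for severe over control, 0.69 for moderate over control and -0.34 for severe over moderate, and for the heat shock protein genes, the medians of lists and the sums of symbols a value on library totals is added where its direction differs. Markers of the cortisol-producing interrenal cells (7 of 7 found) and of chromaffin cells (4 of 5) had counts in every group, as the labelled tissue has them. Several marker sums moved between groups. T and NK cell markers (6 of 6 found, none at 0) summed to 205 CPM (counts scaled to library size) in severe hypoxia, 325 in moderate hypoxia and 131 in the control, and macrophage markers (3 of 4, none at 0) to 1208, 1484 and 609.9. Muscle markers (4 of 6, none at 0) summed to 318, 100.3 and 420.5, exocrine pancreas markers (5 of 5, none at 0) to 18.4, 9.35 and 34.2, and interrenal markers to 561, 283 and 340.0. Liver markers (5 of 7, none at 0) summed to 44.7, 1.85 and 33.3 in these groups, and erythroid markers (6 of 8, gata1 at 0 in severe hypoxia and the control) to 19605, 11574 and 32497. In such bulk libraries fewer cells of a type and less RNA per cell cannot be told apart, and the part of cell composition in the results was not tested.

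On the FPKM scale, which allows levels of different genes to be compared, hspa8 and hsp90ab1 stood far above the rest in every group. The constitutive cytosolic HSP70 gene hspa8 had 2705 FPKM in severe hypoxia, 2834 in moderate hypoxia and 2212 in the control, summed over 2 rows. The cytosolic HSP90 gene hsp90ab1 had 1518, 1426 and 1076 FPKM in the same groups. Of the FPKM of the whole set, hspa8 held 61.9% in severe hypoxia, 63.2% in moderate hypoxia and 64.8% in the control, and hsp90ab1 held 34.8%, 31.8% and 31.5%.

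The other 6 genes lay close together, and their order differed between groups. In severe hypoxia it ran from hsp70 (43.0 FPKM) through hspe1 (29.2), hspa4 (22.4), hspa9 (21.2) and hspd1 (20.5) to hsf1 (8.66). In moderate hypoxia it ran from hspd1 (52.9) through hspa4 (52.2), hspa9 (50.9), hspe1 (32.4) and hsp70 (22.1) to hsf1 (13.8). In the control it ran from hspe1 (35.3) through hsp70 (28.8), hspa4 (21.3), hspd1 (19.3) and hspa9 (16.2) to hsf1 (5.64). Thus hsp70 came first of these 6 in severe hypoxia and next to last in moderate hypoxia, where hspd1, hspa4 and hspa9 came first. An order within a group does not depend on how groups are scaled to each other, but whether neighbours in it differ beyond the variation between fish is not known.

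**Figure D1:**
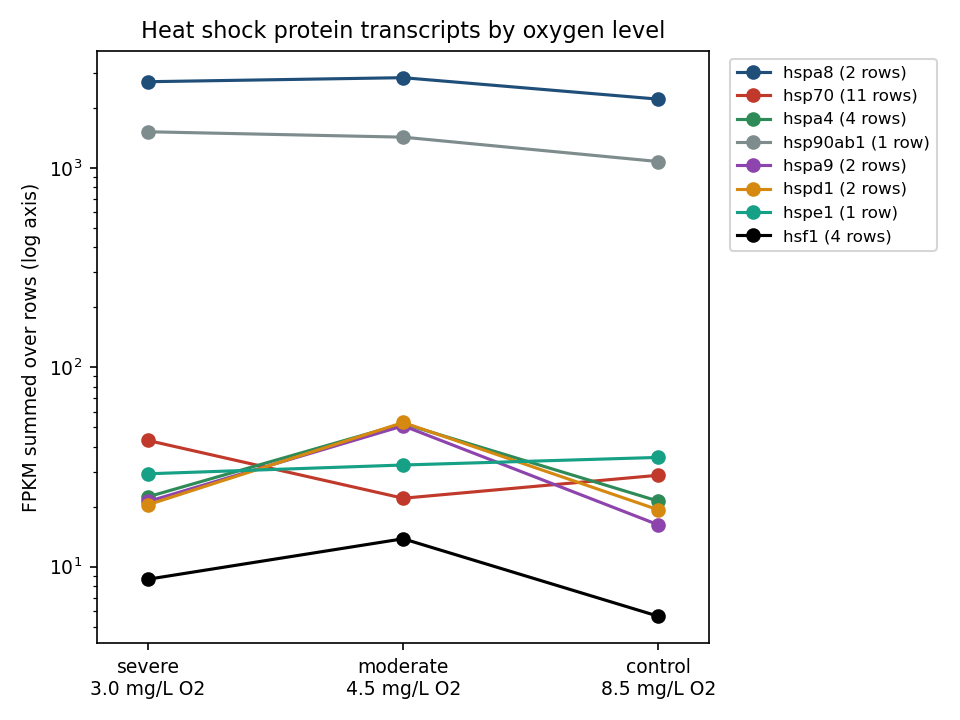
FPKM summed over all rows of each gene (log axis) in severe hypoxia, moderate hypoxia and the control, 1 value per group with no error. The lines of hspa4, hspa9 and hspd1 peak together at 50.9 to 52.9 FPKM in moderate hypoxia, where the hsp70 line has its lowest point at 22.1 FPKM.

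As a set, the rows did not move in 1 direction. In severe hypoxia against the control, 2 of 24 rows were at least 2-fold higher, against 13.7% of all analysed genes, and 1 was at least 2-fold lower, against 4.38%. In moderate hypoxia against the control, 5 rows were at least 2-fold higher, against 20.0% of all analysed genes, and 4 at least 2-fold lower, against 14.1%. Neither comparison with the control, which share the control libraries, stood apart from that background. In severe against moderate hypoxia, 8 rows were at least 2-fold higher, against 9.02% of all analysed genes, and 4 at least 2-fold lower, against 10.5%. The 8 were all hsp70 rows, which appear to share reads and are not 8 separate observations. The 4 were 2 rows of hspa4 and 1 each of hspa9 and hspd1. The median log2 ratio of the 24 rows was 0.04 for severe over control, -0.03 for moderate over control and 0.26 for severe over moderate, beside 0.00, 0.00 and 0.01 for all analysed genes.

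On library totals the split was different. There 4 rows were at least 2-fold higher and 1 lower in severe hypoxia against the control, beside 20.4% and 2.07% of all analysed genes. In moderate hypoxia against the control 10 were higher and 3 lower, beside 38.0% and 4.72%. In severe against moderate hypoxia 6 were higher and 6 lower, beside 4.38% and 19.5%. The median of the 24 rows was then 0.38, 0.66 and -0.089 for severe over control, moderate over control and severe over moderate.

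**Figure D2:**
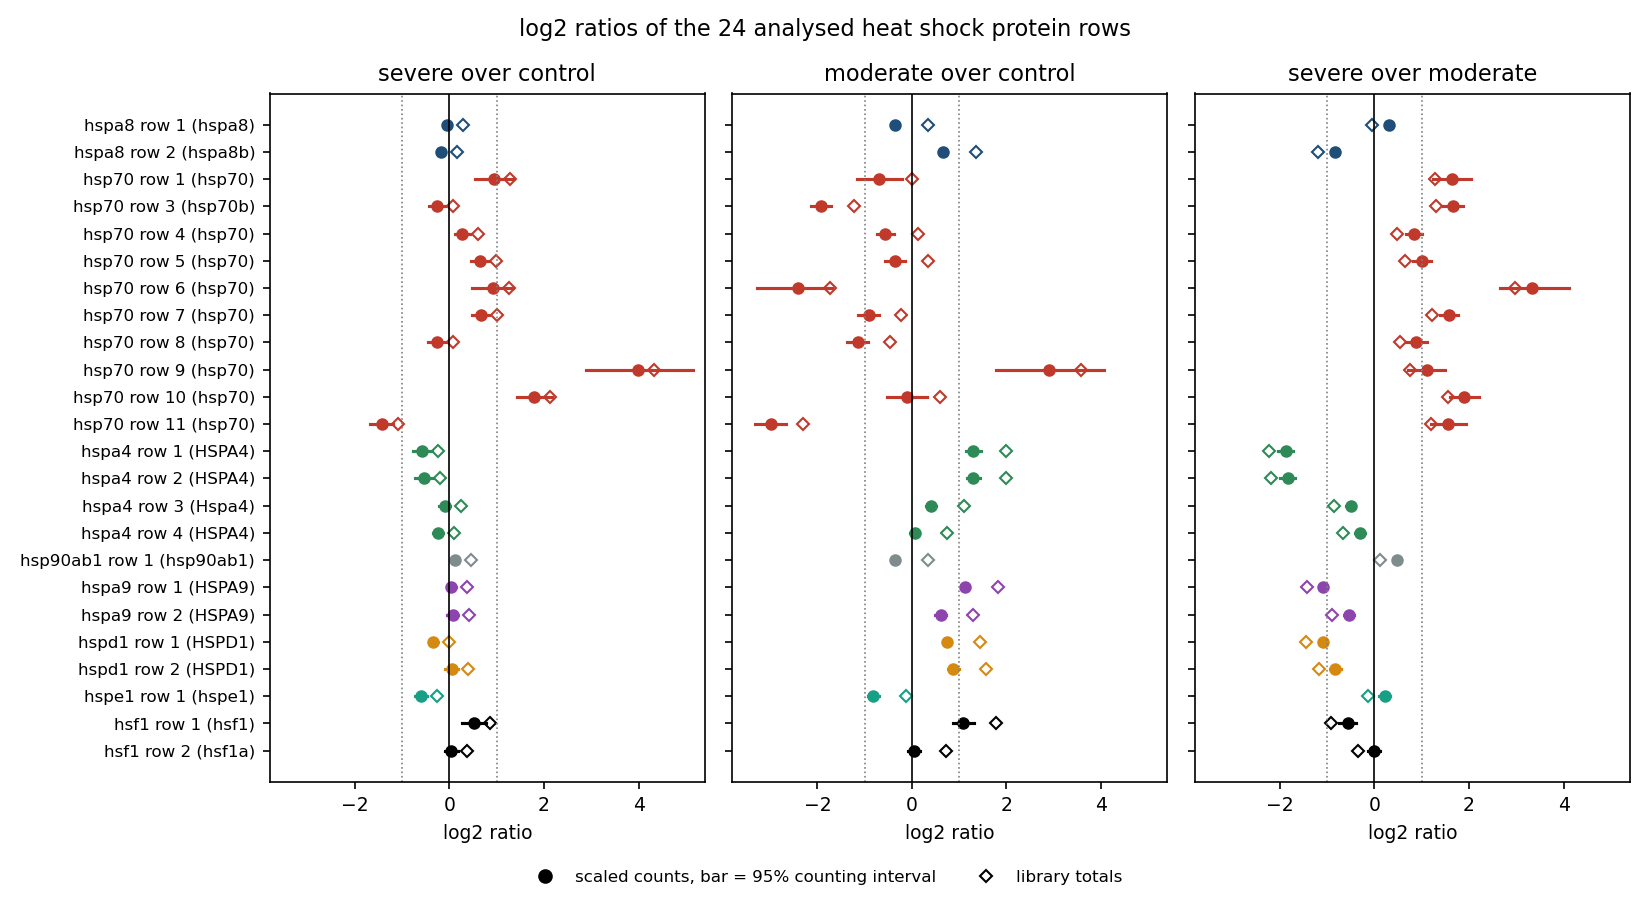
log2 ratios of the 24 analysed rows for severe over control, moderate over control and severe over moderate. Filled points are scaled counts with bars for the 95% counting interval, open diamonds are library totals, and dotted lines mark 2-fold. In the panel of severe over moderate, all 10 hsp70 rows lie right of 0 and all hspa4, hspa9 and hspd1 rows left of it.

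The main hspa8 row was the most abundant of the set. Its product is the HSP70 that folds and sorts proteins in unstressed cells. It was at 90262 counts per library in severe hypoxia, 96708 in moderate hypoxia and 76406 in the control. By count it was at rank 11 of all rows in severe hypoxia, 4 in moderate hypoxia and 23 in the control. After scaling, its log2 ratio was -0.05 for severe over control (counting interval -0.05 to -0.04) and -0.35 for moderate over control (-0.36 to -0.35). On library totals both were above 0, at 0.29 and 0.33, so its direction is set by the scaling. Counting intervals here are exact 95% intervals of the counts and leave out the variation between fish. They also leave out any error from dividing shared reads among rows.

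The other copy, hspa8b, was highest in moderate hypoxia. It was at 1750 counts in severe hypoxia, 4168 in moderate hypoxia and 1634 in the control, log2 ratios of -0.19 for severe over control (0.15 on library totals) and 0.66 for moderate over control (interval 0.61 to 0.70). On the FPKM scale the hspa8b row was at 0.0168 of the hspa8 row in severe hypoxia, 0.0373 in moderate hypoxia and 0.0186 in the control. The scaling cancels in that ratio, which was 2.00-fold higher in moderate hypoxia than in the control. The hspa8b count in moderate hypoxia was not whole after multiplication by the 3 libraries, as a sum of whole reads would be. The row may thus share reads there, and with which rows was not measured.

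The hsp70 rows were the most variable of the set. The symbol covers cytosolic HSP70 copies, a family that in other vertebrates includes the genes that heat switches on most strongly. There were 9 rows named hsp70, 1 hsp70a and 1 hsp70b, numbered here 1 to 11 in the order of the table. Identifiers in the table end after 8 characters, so copies can be told apart by row only. Summed over all rows, hsp70 was at 1371 counts in severe hypoxia, 743 in moderate hypoxia and 960.3 in the control. The sum was 2.45-fold higher in severe than in moderate hypoxia (counting interval 2.32 to 2.58), and 1.92-fold higher on library totals. Its log2 ratio was 0.23 for severe over control (0.16 to 0.30) and -1.07 for moderate over control (-1.15 to -0.98; -0.38 on library totals).

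Every one of the 10 analysed hsp70 rows was higher in severe than in moderate hypoxia, with log2 ratios from 0.83 to 3.32, and from 0.48 to 2.97 on library totals. Of all analysed genes, 50.5% lay above 0 in that comparison, and 31.3% on library totals. The hsp70 rows appear to share reads, as described below, so they are not 10 separate observations. The rows stood between percentiles 87.1 and 99.6 of all analysed genes, a rank that no scaling changes. Several marker lists moved in the same direction for severe over moderate. Rows above 0 were 15 of 15 for muscle, 11 of 11 for exocrine pancreas and 4 of 4 for liver, with medians of 2.42, 1.47 and 5.11. Erythroid (12 of 13), interrenal (8 of 8), chromaffin (3 of 3) and B cell markers (3 of 3) had medians of 1.01, 0.74, 0.73 and 0.41. T and NK cell markers went the other way, with 3 of 14 rows above 0 and a median of -0.38. The remaining lists had rows on both sides of 0. What part these cells have in the hsp70 difference was not tested. The hsp70a row (row 2) was at 1.67, 1.67 and 1.01 counts in severe hypoxia, moderate hypoxia and the control and was not analysed.

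Row 6 showed the largest difference between the hypoxia groups. It was at 48.8 counts in severe hypoxia, 6.46 in moderate hypoxia and 21.3 in the control, 10.02-fold higher in severe than in moderate hypoxia (counting interval 6.30 to 17.4). Row 10 was at 111 counts in severe hypoxia, 39.7 in moderate hypoxia and 26.3 in the control, 3.47-fold higher in severe hypoxia than in the control (2.71 to 4.49). The hsp70b row (row 3) was at 204 counts in severe hypoxia, 85.7 in moderate hypoxia and 199.9 in the control, with moderate hypoxia low and the other groups near each other. Rows 4, 5, 7 and 8 also had more than 100 counts in severe hypoxia. Row 4 was at 243, 180.4 and 164 counts, row 5 at 208, 138 and 109, row 7 at 242, 108 and 126, and row 8 at 134, 95.7 and 131, in severe hypoxia, moderate hypoxia and the control. Row 1 was at 59.5, 25.5 and 25.5 counts, high in severe hypoxia only.

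Against the control, the hsp70 rows did not move together. In severe hypoxia 7 of 10 were above the control, 2 of them at least 2-fold, and 1 was at least 2-fold lower, beside 13.7% and 4.38% of all analysed genes. In moderate hypoxia 1 of 10 was above the control, by more than 2-fold, and 4 were at least 2-fold lower, beside 20.0% and 14.1%. The shares of all analysed genes above the control were 50.3% in severe and 50.2% in moderate hypoxia. On library totals 9 rows were above the control in severe hypoxia and 4 in moderate hypoxia, beside 75.0% and 77.5% of all analysed genes. Rows 9 and 11 stood at opposite ends. Row 9 was at 49.1 counts in severe hypoxia, 30.3 in moderate hypoxia and 2.53 in the control, 15.9-fold (7.45 to 35.5) and 7.41-fold (3.42 to 16.8) higher than the control. Row 11 was at 69.7 counts in severe hypoxia, 31.5 in moderate hypoxia and 154 in the control, log2 ratios of -1.43 and -2.98 against the control.

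Counts of hsp70 rows were not whole numbers of reads. Of the 30 counts of these 10 rows, 0 were whole after multiplication by the 3 libraries (within 0.002), whereas all 6 counts of the hsf1 rows were. The main hspa8 row also had 0 of 3 whole. Summed over all 11 hsp70 rows, the counts were 1370.66 in severe hypoxia, 742.669 in moderate hypoxia and 960.327 in the control. These sums lie near whole numbers after the same multiplication, as when rows divide reads among themselves. Single hsp70 rows are therefore uncertain, and the 10 rows cannot be counted as separate observations. Sharing with rows of other genes was not measured. The sum and the ratio below hold only as far as reads of such rows do not enter them. Relative to hspa8, the summed hsp70 FPKM was 0.0159 in severe hypoxia, 0.00778 in moderate hypoxia and 0.0130 in the control. This ratio, in which the scaling cancels, was 2.04-fold higher in severe than in moderate hypoxia.

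**Figure D3:**
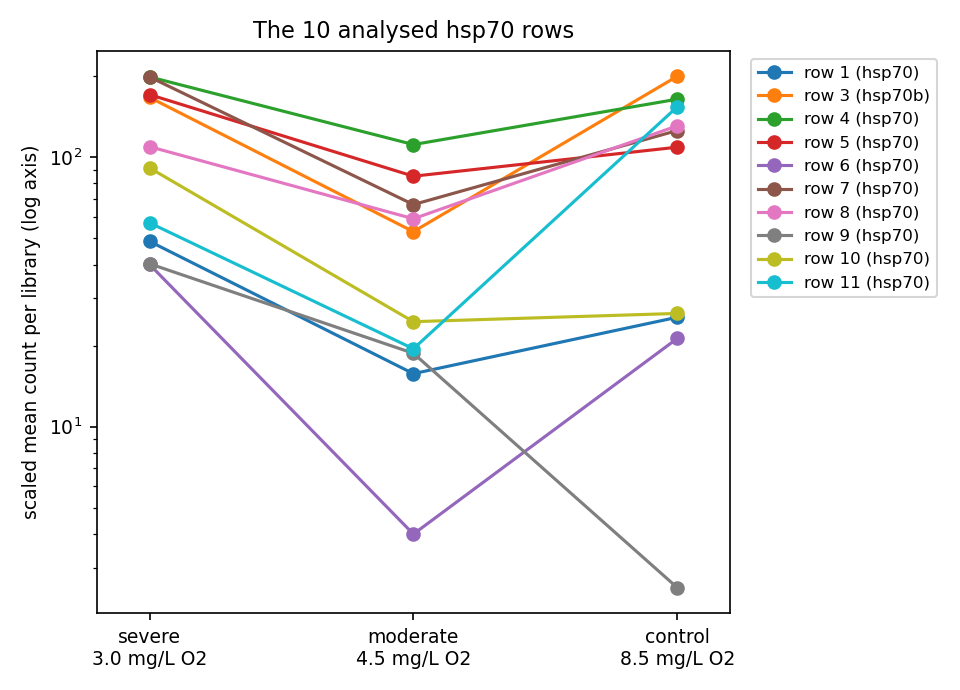
Scaled mean counts per library (log axis) of the 10 analysed hsp70 rows in severe hypoxia, moderate hypoxia and the control, 1 line per row and 1 value per group. Every line is lower in moderate than in severe hypoxia; 9 of them are higher in the control than in moderate hypoxia, and row 9 is lowest in the control at 2.53.

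The hspa4 gene encodes an HSP110-class protein, a relative of HSP70 that serves as its nucleotide exchange factor. Summed over 4 rows it was at 1173 counts in severe hypoxia, 2849 in moderate hypoxia and 1160.0 in the control, with moderate hypoxia above both others. It was 1.52-fold the control in moderate hypoxia (counting interval 1.46 to 1.58), and 2.45-fold on library totals. In severe hypoxia its log2 ratio to the control was -0.27 (-0.34 to -0.20), and 0.07 on library totals.

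The hspa4 rows formed 2 pairs. Rows 1 and 2 were at 122 and 137 counts in severe hypoxia, 596 and 651 in moderate hypoxia, and 149.7 and 163 in the control. Both had a log2 ratio of 1.30 for moderate over control, at percentile 84.5 of all analysed genes, and ratios of -1.88 and -1.84 for severe over moderate, at percentiles 1.83 and 1.97. In each of these rows 1 of 3 counts was whole after multiplication by the 3 libraries, so they may share reads. In severe hypoxia and the control, where neither row was whole, the 2 rows added together came near whole numbers after that multiplication. They thus appear to share reads with each other, and their likeness cannot be counted as 2 separate observations. Rows 3 and 4 were at 441 and 473 counts in severe hypoxia, 827 and 775 in moderate hypoxia, and 386 and 461 in the control, log2 ratios of 0.40 and 0.06 for moderate over control. On the FPKM scale the hspa4 to hsp70 ratio was 0.522 in severe hypoxia, 2.37 in moderate hypoxia and 0.741 in the control. Relative to hspa8, hspa4 was at 0.00829, 0.0184 and 0.00964 in the same groups.

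The cytosolic HSP90 gene hsp90ab1, whose product stabilises kinases and hormone receptors, differed by less than 2-fold in every comparison. Its counts were 57498 in severe hypoxia, 54945 in moderate hypoxia and 43268 in the control. Its log2 ratio was 0.12 for severe over control (counting interval 0.11 to 0.13) and -0.35 for moderate over control (-0.36 to -0.34). On library totals the values were 0.46 for severe and 0.34 for moderate hypoxia, so the direction in moderate hypoxia depended on the scaling. For severe over moderate it was 0.47 after scaling and 0.12 on library totals. Relative to hspa8 its FPKM was 0.561 in severe hypoxia, 0.503 in moderate hypoxia and 0.486 in the control, a narrow range beside that of hsp70. Of its 3 counts, 1 was whole after multiplication by the 3 libraries. The row may thus share reads with other rows, which was not measured.

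Other symbols also hold rows of these families, and they were picked after their values were seen. The 3 rows named hsp90a.1 summed to 186 counts in severe hypoxia, 182 in moderate hypoxia and 94.7 in the control, log2 ratios of 0.69 and 0.25 against the control. The hsp90bb row was at 3079 counts in severe hypoxia, 5518 in moderate hypoxia and 2924 in the control. The 4 rows of hsc71, a synonym of hspa8 in RefSeq (USDA_OmykA_1.1), summed to 2235, 3624 and 2127 counts. Both had small ratios for moderate over control, 0.22 for hsp90bb and 0.07 for hsc71. The hsp90bb counts in severe hypoxia and the control were not whole after multiplication by the 3 libraries, so this row may share reads. A row named HSPA2 was at 157, 149 and 124 counts in severe hypoxia, moderate hypoxia and the control. A further HSP70 row, hsc70, came from the lists below and was at 4355, 837 and 2929 counts in these groups. Like the hsp70 rows it was lower in moderate than in severe hypoxia. Its log2 ratio for severe over moderate was 2.79, against 1.29 for the hsp70 sum.

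Of the mitochondrial chaperones, hspa9 and hspd1 had their highest counts in moderate hypoxia and hspe1 did not. The hspa9 gene encodes mortalin, the matrix HSP70. It was at 1023 counts in severe hypoxia, 2523 in moderate hypoxia and 809.7 in the control. It was 1.04-fold the control in severe hypoxia (counting interval 0.982 to 1.09) and 1.93-fold in moderate hypoxia (1.84 to 2.02; 3.10-fold on library totals). Its rows were alike in this. Row 1 was at 627, 1758 and 499 counts and row 2 at 396, 765 and 310.3 counts in severe hypoxia, moderate hypoxia and the control. In moderate hypoxia neither row was whole after multiplication by the 3 libraries, whereas their sum of 2523 was. The rows may thus share reads there, and their likeness cannot be counted as 2 separate observations.

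The hspd1 gene encodes HSP60, the folding chamber of the matrix. It was at 918 counts in severe hypoxia, 2447 in moderate hypoxia and 877 in the control. It was 0.859-fold the control in severe hypoxia (counting interval 0.814 to 0.906; 1.09-fold on library totals) and 1.73-fold in moderate hypoxia (1.65 to 1.80; 2.78-fold on library totals). Both of its rows were highest in moderate hypoxia. Row 1 was at 600.3, 1699 and 625 counts and row 2 at 318, 748 and 252 counts in severe hypoxia, moderate hypoxia and the control. For severe over moderate hypoxia, hspa9 had a log2 ratio of -0.89 (-0.96 to -0.83) and hspd1 one of -1.01 (-1.07 to -0.94). The hspd1 to hspa9 ratio on the FPKM scale stayed within a narrow range, at 0.964 in severe hypoxia, 1.04 in moderate hypoxia and 1.19 in the control.

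The partner of HSP60 had another pattern. The hspe1 gene, which encodes the HSP10 lid, was at 323 counts in severe hypoxia, 369.9 in moderate hypoxia and 404 in the control. It was 0.656-fold the control in severe hypoxia (counting interval 0.602 to 0.715) and 0.566-fold in moderate hypoxia (0.521 to 0.615), or -0.27 and -0.13 as log2 ratios on library totals. The hspd1 to hspe1 ratio of FPKM was 0.700 in severe hypoxia, 1.63 in moderate hypoxia and 0.546 in the control. The scaling cancels in this ratio, which was 2.99-fold higher in moderate hypoxia and 1.28-fold higher in severe hypoxia than in the control. In moderate hypoxia alone, the counts of hspe1 and of hspd1 row 1 were not whole after multiplication by the 3 libraries. Added together, these counts came near a whole number after that multiplication, as when rows divide reads among themselves. The rows thus appear to share reads with each other in moderate hypoxia. How many reads they share was not measured, and the ratio of hspd1 to hspe1 in that group is uncertain to that extent.

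Gene length moved with these values. The length derived from count and FPKM was 749.7 bases for hspe1, against 2993 and 3080 for the hspd1 rows, and analysed genes in the length bin of hspe1 had a median log2 ratio of -1.11 for moderate over control. With the trend with length removed, hspe1 was at 0.29 and hspd1 at 0.67 for moderate over control. For severe over control, hspe1 was then at -0.18 and hspd1 at -0.28. In moderate hypoxia the direction of hspe1 thus turned and the gap between the partners became smaller. In severe hypoxia their order turned, with hspd1 below hspe1.

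**Figure D4:**
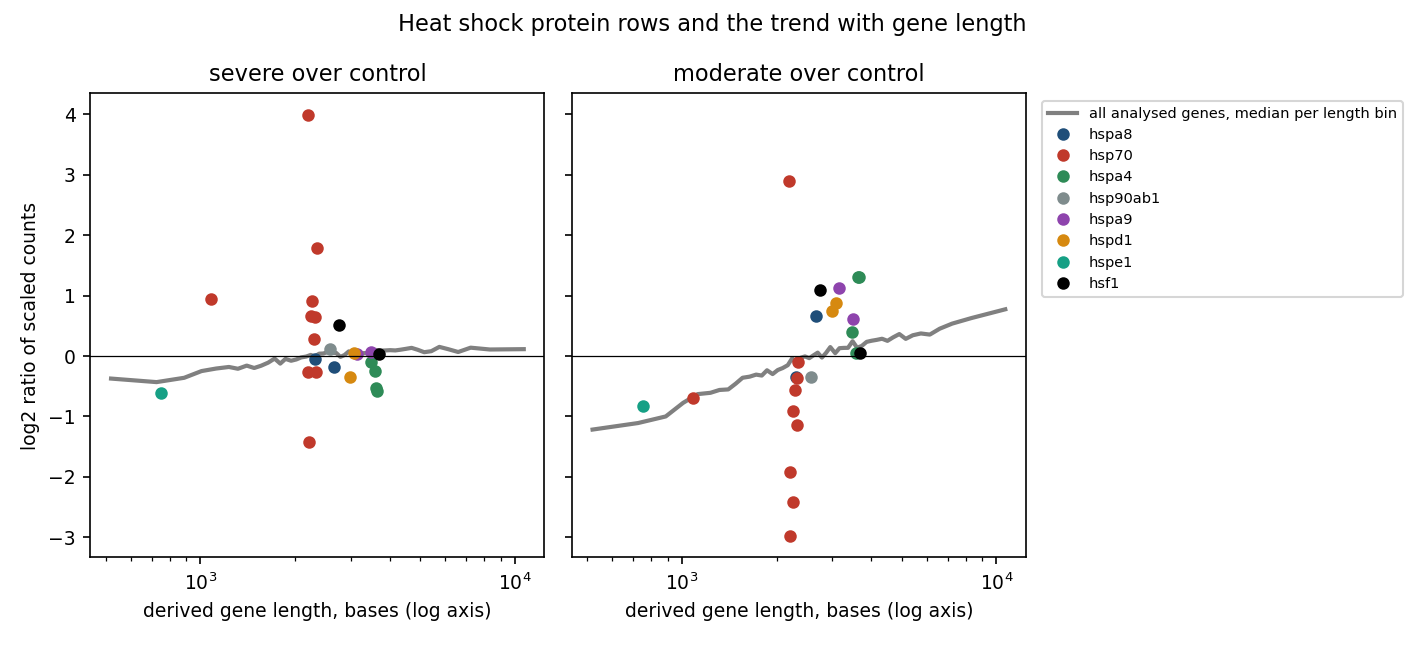
log2 ratio of scaled counts against derived gene length (log axis) for the analysed rows, severe over control on the left and moderate over control on the right. The grey line is the median of all analysed genes in 50 bins of length; in moderate hypoxia it climbs with length, the hspe1 point at -0.82 sits just above it, and the rows of hspa9 and hspd1 lie above it while most hsp70 rows lie below.

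The analysed hsp70 rows other than row 1 had derived lengths of 2194 to 2343 bases, near the median of all analysed genes, which was 2745. In their length bins the median log2 ratio of all analysed genes was between -0.15 and -0.04 for moderate over control. With the trend removed, 10 of 10 hsp70 rows remained above 0 for severe over moderate, from 0.69 to 3.30, and 2 of 10 were above 0 for moderate over control. The hspa4 rows, of 3481 to 3645 bases, were then at -0.08 to 1.16 for moderate over control.

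The transcription factor gene hsf1 had the lowest FPKM of the set, and its copies differed. The hsf1 row was at 126 counts in severe hypoxia, 247 in moderate hypoxia and 72.0 in the control. Its log2 ratio was 0.52 for severe over control (counting interval 0.27 to 0.77) and 1.09 for moderate over control (0.87 to 1.31). The hsf1a row was at 300.3, 399 and 239 counts in these groups, a log2 ratio of 0.04 against the control in each hypoxia group. On library totals hsf1a was at 0.38 and 0.73. The hsf1 row relative to the hsf1a row was at 0.537 on the FPKM scale in severe hypoxia, 0.770 in moderate hypoxia and 0.451 in the control. Of the 2 rows written HSF1, 1 was at 3.33, 5.67 and 1.00 counts and the other at 0 in every group, where a count of 0 allows up to 3 counts over the libraries of a group. The activity of this factor is set on the protein, which was not measured.

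Partners of these chaperones were described from lists. The HSP40 co-chaperones of the cytosol, which bring clients to HSP70, had 4 of 40 analysed rows at least 2-fold higher and 1 lower in severe hypoxia against the control, and 6 higher and 3 lower in moderate hypoxia. The shares of all analysed genes were 13.7% higher and 4.38% lower in severe hypoxia and 20.0% and 14.1% in moderate hypoxia, and they are the background of every list below. Their median log2 ratios were -0.03 and -0.29 (0.31 and 0.39 on library totals). A dnajc5 row was at 60.5 counts in severe hypoxia, 132 in moderate hypoxia and 7.67 in the control, while all 10 dnajc5 rows summed had log2 ratios of -0.10 (0.24 on library totals) and 0.21. A Dnajc9 row was at 19, 90 and 19 counts in severe hypoxia, moderate hypoxia and the control, while the 3 dnajc9 rows summed had a log2 ratio of -0.17 for moderate over control (0.52 on library totals). A dnajc2 row was at 60.2, 119 and 131 counts, log2 ratios of -1.41 in severe and -0.84 in moderate hypoxia against the control, where its 2 rows summed were at -0.56 and -0.06 (-0.22 and 0.62 on library totals).

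Exchange factors and other cofactors of HSP70 had 2 of 33 rows at least 2-fold higher and 0 lower in severe hypoxia, and 6 higher and 4 lower in moderate hypoxia, with medians of 0.09 and 0.17. The hsc70 row, a constitutive HSP70 outside the symbol rule, was at 4355 counts in severe hypoxia, 837 in moderate hypoxia and 2929 in the control, and was low in moderate hypoxia at a log2 ratio of -2.50 against the control. A Bag6 row, a cofactor in protein quality control, was at 108, 295 and 54.7 counts in these groups, a log2 ratio of 1.74 for moderate over control, where the 5 bag6 rows summed were at 0.53. A row of STUB1, the ubiquitin ligase CHIP that marks HSP70 clients, was at 53.9, 95.2 and 18.9 counts, with a log2 ratio of 1.64 for moderate over control, where the 12 stub1 rows summed were at 0.69.

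The HSP90 co-chaperones had 6 of 33 rows at least 2-fold higher and 1 lower in severe hypoxia, and 7 higher and 0 lower in moderate hypoxia, with medians of -0.04 (0.30 on library totals) and 0.00. The counts of higher rows were near the background shares, whereas the 0 lower rows in moderate hypoxia stand beside 14.1% of all analysed genes. An FKBP5 row, a co-chaperone of the glucocorticoid receptor, had log2 ratios of 3.08 in severe and 3.07 in moderate hypoxia, where its 2 rows summed were at 2.54 and 2.50. The chordc1b row was at 74.3 counts in severe hypoxia, 270.3 in moderate hypoxia and 21.7 in the control, a log2 ratio of 2.95 for moderate over control, where the 2 chordc1 rows summed were at 1.94. A row of cdc37, which brings kinases to HSP90, was at 72.7, 215 and 25.4 counts, while its 4 rows together had a log2 ratio of 0.22 for moderate over control. The stip1 gene, whose product HOP links HSP70 to HSP90, was named after its values were seen: its 2 rows summed to 1049.7 counts in severe hypoxia, 2578 in moderate hypoxia and 761 in the control, a log2 ratio of 1.07 for moderate over control.

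The TRiC/CCT chaperonin, which folds actin and tubulin, had 0 of 15 rows at 2-fold in either direction in either hypoxia group against the control. Its medians were -0.24 and -0.32 (0.10 and 0.37 on library totals), with 2 and 4 rows above 0, and 9 and 14 on library totals. The shares of all analysed genes above 0 were 50.3% and 50.2%, and 75.0% and 77.5% on library totals. The rows with the largest ratios were cct7, CCT2 and cct8, and none passed 0.83 in size. Prefoldin, which delivers clients to TRiC, had medians of -0.36 in severe and -0.85 in moderate hypoxia, with 2 of 8 rows at least 2-fold lower in moderate hypoxia. These were pfdn6 at -1.69 and pfdn1 at -1.44, and a PFDN2 row followed at -0.96. The pfdn6 and pfdn1 rows are short, with derived lengths of 705 and 715 bases, and were at -0.58 and -0.33 with the trend with length removed.

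Partners and proteases of the mitochondrion had 3 of 41 rows at least 2-fold higher and 1 lower in severe hypoxia, and 7 higher and 3 lower in moderate hypoxia, with medians of -0.01 (0.33 on library totals) and 0.09. These counts of higher rows show no excess over the 13.7% of all analysed genes in severe hypoxia and 20.0% in moderate hypoxia. A row of TIMM44, which ties the matrix HSP70 to the import channel, was at 9 counts in severe hypoxia, 52.7 in moderate hypoxia and 5.33 in the control, a log2 ratio of 2.61 for moderate over control, where its 3 rows summed were at 0.80. A row of grpel2, an exchange factor of mortalin, was at 44.7, 87.3 and 11 counts, with a log2 ratio of 2.29 for moderate over control, where its 2 rows summed were at 0.38 and thus no higher than the 0.42 for severe over control. A row of the protease Yme1l1 was at 27.7, 79.0 and 10.7 counts, with a log2 ratio of 2.19 for moderate over control, where its 4 rows summed were at 0.62. These rows were named for the size of their ratio, and the sums of the 19 symbols lay on both sides of 0. For moderate over control the sums ran from -1.81 for dnajc19, a partner of the import motor, through -0.97 for dnajc30 and -0.93 for hscb, to 0.62 for trap1, the mitochondrial HSP90, and 1.11 for lonp1, a matrix protease. These 5 were chosen after their values were seen. The trend with length was not removed from these sums, and by count and FPKM dnajc19 and hscb are shorter than trap1 and lonp1. For moderate over control, the median of all analysed genes was -1.22 in the length bin near 520 bases. It was -0.63 in the bin near 1122 bases and 0.14 in the bin near 3373 bases.

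**Figure D5:**
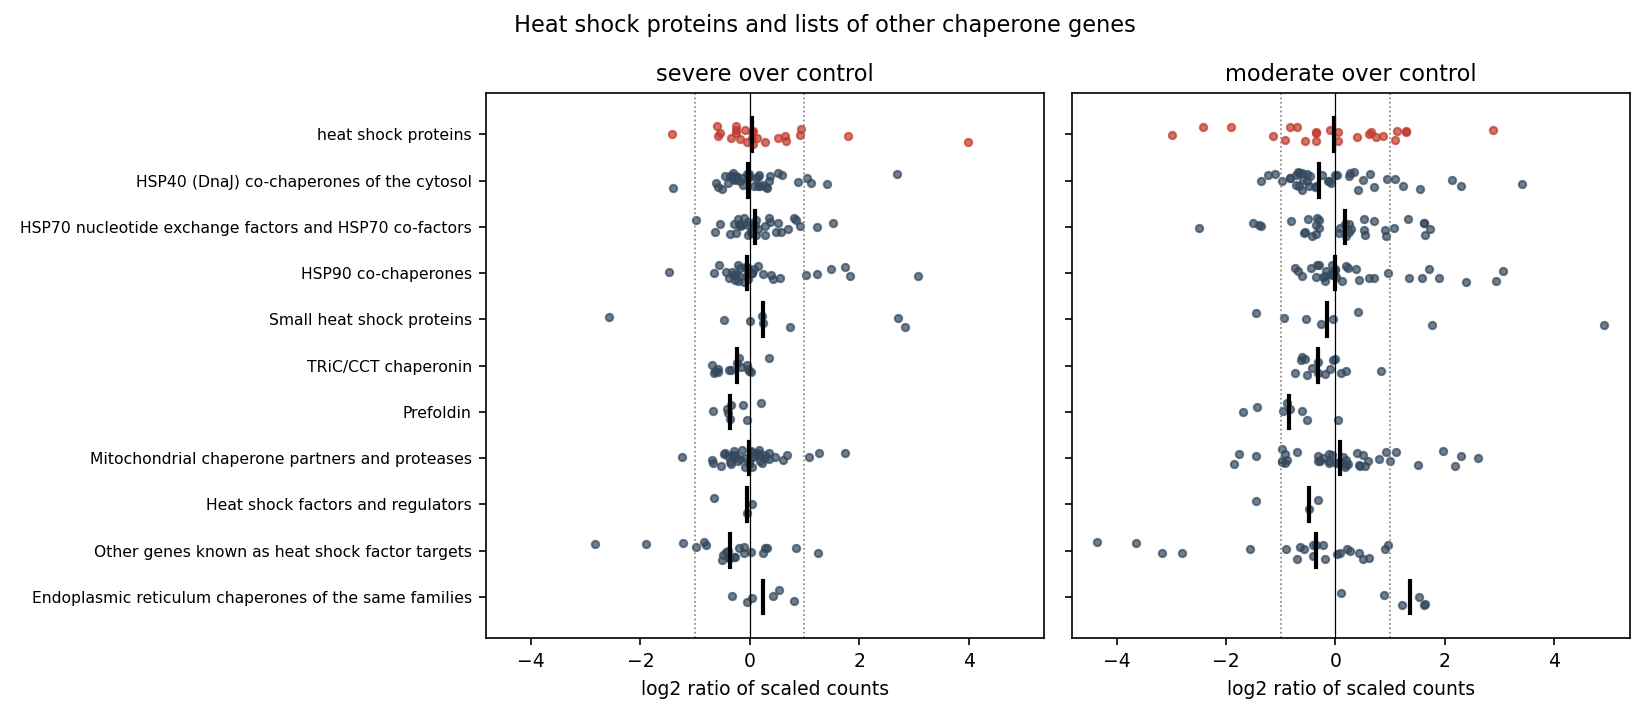
log2 ratios of scaled counts of the heat shock protein rows (red) and of the analysed rows of 10 lists of other chaperone genes (dark), severe over control on the left and moderate over control on the right. Each point is 1 row, black ticks are medians and dotted lines mark 2-fold. The median of the endoplasmic reticulum chaperones in moderate hypoxia, at 1.37, is the only tick beyond 2-fold. It rests on 6 rows, of which the 2 hspa5 rows appear to share reads.

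The endoplasmic reticulum members of the HSP70 and HSP90 families, hspa5, hsp90b1 and hyou1, had 0 of 6 rows at 2-fold in severe hypoxia and 4 of 6 at least 2-fold higher in moderate hypoxia, with medians of 0.23 and 1.37. The hspa5 gene, which encodes BiP, summed to 2041 counts in severe hypoxia, 8350.0 in moderate hypoxia and 1680.3 in the control. Its 2 rows had log2 ratios of 1.64 and 1.62 for moderate over control. None of their counts was whole after multiplication by the 3 libraries, whereas their sums came near whole numbers. These rows thus appear to share reads, and they are not 2 separate observations among the 4. An Hsp90b1 row was at 137, 300 and 64.3 counts in severe hypoxia, moderate hypoxia and the control. Other genes known as heat shock factor targets had 1 of 23 rows higher and 3 lower at 2-fold in severe hypoxia, and 0 higher and 5 lower in moderate hypoxia, with medians of -0.37 and -0.35 (-0.03 and 0.34 on library totals). Among them hmox1a, which encodes a haem-degrading enzyme, was at 1155 counts in severe hypoxia, 1024 in moderate hypoxia and 1870.0 in the control. The regulators hsf2 and hsbp1b had 0 of 3 rows at least 2-fold higher in either hypoxia group against the control, and 1 row, hsbp1b, at least 2-fold lower in moderate hypoxia. The hsbp1b row, a binding protein that restrains heat shock factor 1, was at -0.66 for severe over control and -1.45 for moderate over control, and at -0.29 and -0.23 with the trend with length removed. The 2 Hsf2 rows were at -0.05 and 0.04 for severe over control (0.29 and 0.38 on library totals), and at -0.48 and -0.31 for moderate over control (0.21 and 0.37 on library totals).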

How the data were processed

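Head kidney RNA was measured in 9 libraries. The authors deposited 1 table with an FPKM value and an estimated count per gene and group, per the file headers. The submitters' processing notes name HISAT2 and Bowtie2 2.2.8 without a role, and no label or header names a counting tool or genome build. Fields are 8 characters wide and were read by position. Values were read as means over 3 libraries: multiplied by 3, 71.5% of non-zero severe counts, 69.6% of moderate and 73.9% of control counts are whole within 0.002.

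Members and lists were chosen with earlier results of these data known. Rows needed 10 counts per library in some group. Scaling used trimmed means of M values (trimming 30% of ratios and 5% of abundances), and 2-fold was the threshold. The scaling was checked on simulated counts with few changed genes, as many up as down, and no globin shift or length trend. That check cannot tell which scaling suits these data. Counting intervals are exact Clopper-Pearson 95% intervals on counts summed over libraries. Reads had no molecular identifiers, so intervals and floors (3 counts per group) cover counting error only. Length is derived from count, FPKM and library total, and its trend was removed in 50 bins. Per list, up to 3 rows are named, those with the largest ratio to the control among rows that reach 50 counts. Among them, the dnajc5, dnajc2, STUB1, cdc37 and UBB rows had no whole count after multiplication by 3. Such rows may share reads, and their single ratios are uncertain. The quasi-likelihood test planned for values per library could not be run on group values. Alternatives were other scalings, filters, folds, FPKM with pseudocounts, length and summed rows. Tools were Python 3.11.15, numpy 2.4.6, pandas 2.3.3, scipy 1.17.1 and matplotlib 3.10.9.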

Additional observations from a re-analysis of the deposited data

How the results depend on the processing

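Directions of the 8 gene sums in 3 comparisons (24 values) all held with median-of-ratios size factors, no filter and a minimum of 50 counts; 7 turned on library totals and on each FPKM scale, 5 on totals without globin and mitochondrially encoded genes, and 3 with the trend with length removed. Kept under all 8 alternatives were hsp70, hsp90ab1, hspe1 and hsf1 in severe hypoxia against the control, hsp70, hspa4, hspa9, hspd1 and hsf1 in moderate hypoxia against the control, and hsp70, hspa4, hsp90ab1, hspa9, hspd1 and hsf1 in severe against moderate hypoxia. For severe over control, rows at least 2-fold higher numbered 4 on library totals, on totals without globin and mitochondrially encoded genes and on FPKM with a pseudocount of 0.1, 1 at 50 counts, 6 at 1.5-fold and 0 with rows summed; lower rows numbered 2 at 1.5-fold, and 0 at 3-fold, on FPKM with a pseudocount of 1 and with rows summed. For moderate over control, higher rows numbered 10 on library totals and on FPKM with a pseudocount of 0.1, 9 on totals without globin and mitochondrially encoded genes, on FPKM with a pseudocount of 1 and at 1.5-fold, 1 at 3-fold and 0 with rows summed; lower rows numbered 7 at 1.5-fold, and 1 on FPKM with a pseudocount of 1 and with rows summed. For severe over moderate, higher rows numbered 4 at 3-fold, 3 on FPKM with a pseudocount of 1 and 1 with rows summed, and lower rows 2 at 3-fold and 1 with rows summed. On library totals, on totals without globin and mitochondrially encoded genes, and on FPKM with pseudocounts of 1 and 0.1, the median log2 ratio of the rows was 0.38, 0.27, 0.34 and 0.38 for severe over control, 0.66, 0.47, 0.55 and 0.63 for moderate over control, and -0.089, -0.0075, -0.090 and -0.092 for severe over moderate. The last was 0.10 at 50 counts, 0.13 with the trend with length removed and 0.010 with rows summed. The cause of these shifts was not tested. The ratio of hspd1 to hspe1 was 3.05-fold higher in moderate hypoxia than in the control on counts, an alternative chosen after seeing the data, against 2.99-fold on FPKM. Both scales rest on the same reads, so their likeness is no separate check. With the trend with length removed, the log2 ratios for moderate over control were 0.67 for hspd1 and 0.29 for hspe1, a smaller gap. No paired analysis was possible because the table holds 1 value per group, and leaving out single replicates was not run for that reason. Depth limits the rows with few counts, such as hsp70 row 9 in the control.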

Other observations

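Small heat shock proteins, which hold unfolding proteins without ATP, were at low counts throughout. The 16 rows named hsp30, a small heat shock protein gene of fishes, together had 0.333 counts per library in severe hypoxia, 0 in moderate hypoxia and 1.00 in the control. The 6 rows of hspb1 summed to 23.0, 29.3 and 26.7 counts in severe hypoxia, moderate hypoxia and the control. The cryab row, which encodes alpha B crystallin, was at 23.3 counts in severe hypoxia, 14.7 in moderate hypoxia and 2.67 in the control. Of the 8 analysed rows of the small heat shock protein list, 2 were at least 2-fold higher and 1 lower than the control in each hypoxia group, with medians of 0.23 and -0.16 (0.57 and 0.53 on library totals).

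Rows of ubb, a ubiquitin gene on the list of heat shock factor targets, lay far from their sum. The 2 rows with the largest ratios were at -4.36 and -2.79 for moderate over control. The 7 rows of the symbol together were at -0.83 for moderate over control and -0.14 on library totals. No count of those 2 rows was whole after multiplication by the 3 libraries. They may thus share reads with other rows, and their single ratios are uncertain.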
